A study of Drosophila melanogaster with 6 samples.

Results

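The 8 genes examined here act at the nuclear end of the Wingless pathway and in its negative feedback. The nuclear effectors are pan, pygo, lgs and gro, and the feedback genes are nkd, Notum, fz3 and nmo. They were chosen by name for these roles, with earlier results of these data known. All 8 were found among the 17493 gene identifiers of the deposited count table, and all 8 were among the 10526 genes with enough reads to test. RNA came from whole Drosophila melanogaster embryos aged 10 to 15 hours, from 2 lines with 3 embryo collections each. Both lines carry tags on form D of Shaggy at the endogenous gene sgg, namely a DsRed fluorescent protein at the N terminus and a StrepII-Flag-StrepII affinity tag inside the protein. The control line, sgg[isoD-DS-SFS], is otherwise wild type, and the mutant line, sgg[isoD-CI-DS-SFS], which is homozygous, also has changes at 2 consensus caspase recognition sites. With 1 stock for each line, the caspase-site changes and any other difference between the stocks cannot be told apart.

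Wingless is a secreted Wnt ligand that patterns the segments, gut and nervous system of the fly embryo. Shaggy, the fly glycogen synthase kinase 3, marks the β-catenin Armadillo for destruction when the ligand is absent, and the DNA-binding factor Pangolin, the fly TCF encoded by pan, then represses target genes together with the corepressor Groucho. When the ligand binds, Armadillo is spared and enters the nucleus, where it joins Pangolin and recruits Legless and Pygopus to activate the targets. Several targets limit the signal in turn. Naked cuticle, from nkd, binds Dishevelled, Notum is a secreted enzyme that removes the lipid of Wnt ligands, Frizzled 3 is a receptor of low signalling activity, and Nemo is a protein kinase that antagonises Wingless signalling.

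Of the 8 genes, 1 passed the test between the lines and 7 did not. The gene nkd fell by 12.5% in the mutant line, and the 95% interval of this change was -20.4% to -3.93%. The 3 other feedback genes and the 4 nuclear effectors had estimates between -0.13 and 0.12 on the log2 scale. Of all tested genes, 22.3% passed the same test (8.67% lower and 13.7% higher in the mutant line), so 1 called gene of 8 is not above that share. At an unadjusted p under 0.05 the count was also 1 of 8, against 36.1% of all tested genes. Values are CPM, read counts relative to a fixed library total, after TMM scaling, which corrects that total for RNA composition, and the test was edgeR's quasi-likelihood test with Benjamini-Hochberg adjustment over all tested genes and a threshold of 0.05. With library size alone as the scaling, the share of higher genes among all calls was 49.9% in place of 61.1%, and nkd was still the lower and only called gene of the 8. In bulk RNA of whole embryos, fewer cells of a type and less RNA per cell cannot be told apart.

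The 8 genes had an estimated fall in 4 cases and an estimated rise in 4. Their median log2 fold change was 0.01, against -0.01 for all tested genes. The median size of the change, without its sign, was 0.08 for the 8 genes and 0.19 for all tested genes. These medians were not matched for level. The 8 genes stood between percentile 37.6 (Notum) and percentile 93.6 (nmo) of level, while all tested genes include rarer ones. No gene of the 8 passed in the upward direction, and at an unadjusted p under 0.05 the count of higher genes was also 0, as it was with the DESeq2 Wald test and with limma-voom.

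**Figure D1:**
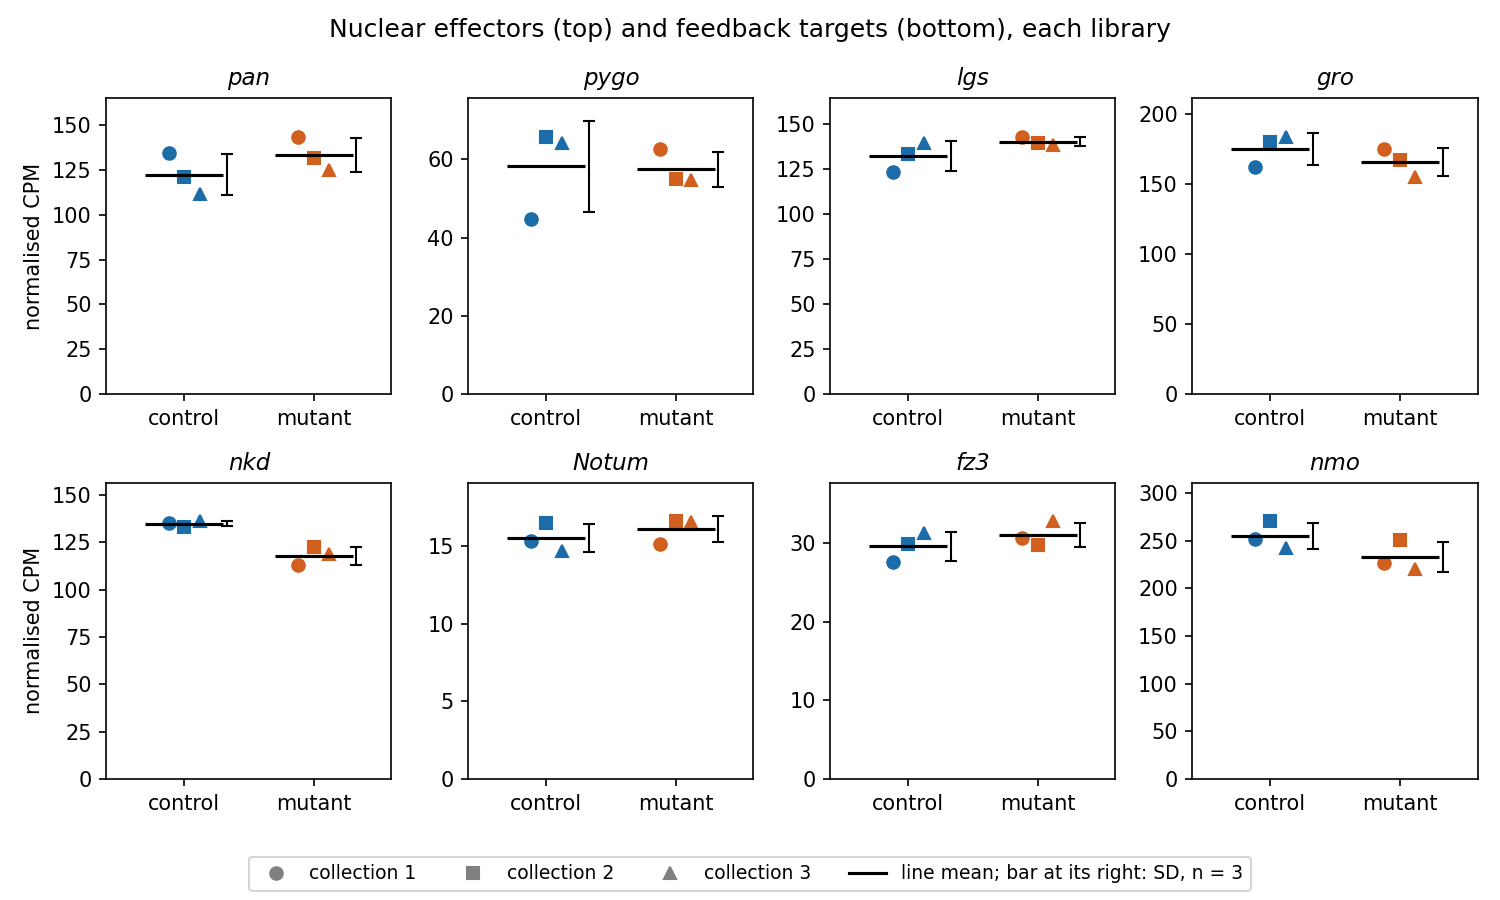
Normalised CPM (vertical axes, starting at 0) of each of the 8 genes in the 3 control and 3 mutant libraries, with the line mean as a bar and the SD (n = 3) at its right. The 3 mutant values of nkd, 113 to 122 CPM, all lie under the 3 control values, 133 to 136 CPM, while the values of the lines overlap for the other 7 genes.

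The libraries held 12646077 to 19454630 counted reads. A single one of the 8 genes had between 195 and 5294 reads in a library, and together they took 0.0853% to 0.0957% of all reads. Control collection 1 stood apart from control collections 2 and 3 on the second principal component of all genes, which carried 16.4% of the variance, and results that rest on it are given with and without it. Markers of muscle, neurons, glia, epidermis and hemocytes were all present in both lines. Total sgg RNA averaged 302 ± 15.5 CPM in controls and 306 ± 2.77 CPM in mutants (SD, n = 3 each), which does not check the edited sites.

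The nuclear effectors were taken in the order of the repressed state and then the activators. The gene pan (FBgn0085432) occupies bases 69326 to 114270 of chromosome 4, forward strand. All positions are those of BDGP6 in Ensembl release 115. It was at 134, 121 and 112 CPM in control collections 1, 2 and 3 and at 144, 132 and 125 CPM in mutant collections 1, 2 and 3. The lines overlapped, since control collection 1 lay above mutant collections 2 and 3. Control collections averaged 122 ± 11.3 CPM and mutant collections 133 ± 9.53 CPM (SD, n = 3 each). The estimate of 0.12 on the log2 scale (standard error 0.09) had an edgeR adjusted p of 0.336, and its 95% interval ran from -4.79% to 24.8%. Without control collection 1, the highest control value, it was 0.19 with an edgeR adjusted p of 0.128. It was 0.0573 without control collection 3 and 0.0545 without mutant collection 1.

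The gene gro (FBgn0001139, 3R, 26041736 to 26049911, forward strand) encodes the corepressor that many DNA-binding repressors besides Pangolin recruit. It was at 163, 180 and 184 CPM in the control collections and at 175, 167 and 156 CPM in the mutant collections. The single lowest value was in mutant collection 3, and the ranges of the lines overlapped. On the log2 scale the change was -0.08 (standard error 0.07), with an edgeR adjusted p of 0.466 and an interval of -15.8% to 6.13%. Without control collection 1 or mutant collection 1 it was -0.14 and still did not pass (edgeR adjusted p 0.215 and 0.305). It was -0.052 without control collection 3 and -0.0495 without mutant collection 3. Of the exons of gro, 181 bases (4.06%) overlap those of Exo84 on the opposite strand. Whether counting used strand is not given in the sources used here, and Exo84 had 362 to 525 reads in a library against 2068 to 3527 for gro.

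Legless, the fly BCL9, bridges Armadillo and Pygopus. Its gene lgs (FBgn0039907, 4, 436957 to 443911, reverse strand) was at 123, 133 and 140 CPM in the control collections and at 143, 139 and 138 CPM in the mutant collections. The mutant collections lay close together, within the upper part of the control range or just above it. Its log2 fold change was 0.09 (standard error 0.07), with an edgeR adjusted p of 0.391 and an interval of -4.35% to 17.7%. It was 0.0357 without control collection 1 and 0.0556 without mutant collection 1.

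Pygopus reads the histone tail through its PHD finger while bound to Legless. Its gene pygo (FBgn0043900, 3R, 31575835 to 31580699, reverse strand) varied most among the 8 genes. It was at 44.8, 65.8 and 64.0 CPM in the control collections and at 62.7, 55.0 and 54.7 CPM in the mutant collections. Control collection 1 was the lowest of all 6, and the other control collections were the highest. The control line had a coefficient of variation of 20.0% and the mutant line one of 7.84%, while counting alone would give 4.19% at the 570 reads of control collection 1. Between the lines pygo differed by -0.02 on the log2 scale (standard error 0.14), with an edgeR adjusted p of 0.927 and an interval of -21.1% to 22.6%. Without control collection 1 it was -0.18, with an edgeR adjusted p of 0.164, and without control collection 2, control collection 3 or mutant collection 2 the estimate was positive (0.05, 0.04 and 0.0042).

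Control collection 1 had the lowest control value of pygo, lgs and gro and the highest of pan. The balance of Pangolin and Groucho RNA therefore differed among control collections more than in the mutant line. The ratio of pan reads to gro reads was 0.826, 0.672 and 0.607 in the control collections and 0.818, 0.788 and 0.801 in the mutant collections. The 3 mutant ratios lay together near the top of the control range, and the lines overlapped through control collection 1 only.

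Among the feedback genes, nkd (FBgn0002945, 3L, 19003741 to 19045449, reverse strand) is a widely used readout of Wingless signalling, and its loss lets the signal spread until the larva has naked cuticle in place of denticles. It had 1720, 2610 and 2516 reads in control collections 1, 2 and 3 and 1700, 1859 and 1819 reads in the mutant collections. After scaling these were 135, 133 and 136 CPM against 113, 122 and 119 CPM. Each mutant collection was lower than each control collection, and nkd was the 1 gene of the 8 with such a lack of overlap. Of all tested genes 41.9% showed it in either direction and 20.0% in this one. The means were 135 ± 1.42 and 118 ± 4.79 CPM (SD, n = 3 each). The control line had a coefficient of variation of 1.05%. Counting alone gives 2.43% at the 1700 reads of mutant collection 1, the lowest of the 6 libraries, and less at the higher reads of the control collections.

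On the log2 scale nkd fell by 0.19 (standard error 0.06), and the adjusted p was 0.0483 from edgeR and 0.0454 in the authors' deposited table. Its adjusted p was number 2311 in order of size, close to the end of the 2350 called genes. None of the 6 fits with 1 library removed kept the call. Those fits also called fewer of all genes, 1295 to 2146 in place of 2350. For nkd the edgeR adjusted p was 0.0725, 0.0942 and 0.0947 without control collections 1, 2 and 3. It was 0.115, 0.0609 and 0.107 without mutant collections 1, 2 and 3. The call was also lost with the replicate number as a block (0.0876), with no filter on low counts (0.0713) and in the DESeq2 Wald test (0.0746). The estimate itself stayed between -0.23 and -0.18 under every alternative run.

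Notum (FBgn0044028, 3L, 16023480 to 16032752, forward strand) was the rarest of the 8 genes, with 195 to 323 reads in a library. It was at 15.3, 16.5 and 14.7 CPM in the control collections and at 15.1, 16.6 and 16.6 CPM in the mutant collections. The ranges of the lines overlapped almost fully. Notum differed by 0.05 on the log2 scale (standard error 0.10), with an edgeR adjusted p of 0.742 and an interval of -11.2% to 21.2%. A fall of the size estimated for nkd, 12.5%, lies outside that interval. The interval of nkd itself, -20.4% to -3.93%, overlaps it, and the change of Notum was not tested against that of nkd. The estimate ran from 0.0075 without control collection 3 to 0.0851 without control collection 2, and was 0.0806, 0.0291 and 0.019 without mutant collections 1, 2 and 3.

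The gene fz3 (FBgn0027343, X, 769945 to 784222, forward strand) lies on the same chromosome as sgg, 1849730 bases from it. It was at 27.6, 29.9 and 31.3 CPM in the control collections and at 30.7, 29.7 and 32.8 CPM in the mutant collections. Control collection 1 was lowest and mutant collection 3 highest, with the rest intermingled. The estimate for fz3 was 0.07 on the log2 scale (standard error 0.08), with an edgeR adjusted p of 0.592 and an interval of -7.92% to 19.4%. It was 0.0204 without control collection 1, 0.0155 without mutant collection 3 and 0.1053 without control collection 3.

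The gene nmo (FBgn0011817, 3L, 7979046 to 8054147, forward strand) had the most reads of the 8. It was at 252, 270 and 243 CPM in the control collections and at 227, 250 and 221 CPM in the mutant collections. Mutant collection 2 lay above control collection 3, so the lines overlapped by that 1 value. The estimate for nmo was -0.13 on the log2 scale (standard error 0.07), with an edgeR adjusted p of 0.224 and an interval of -18.6% to 2.21%. That interval holds both no change and the size estimated for nkd.

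**Figure D2:**
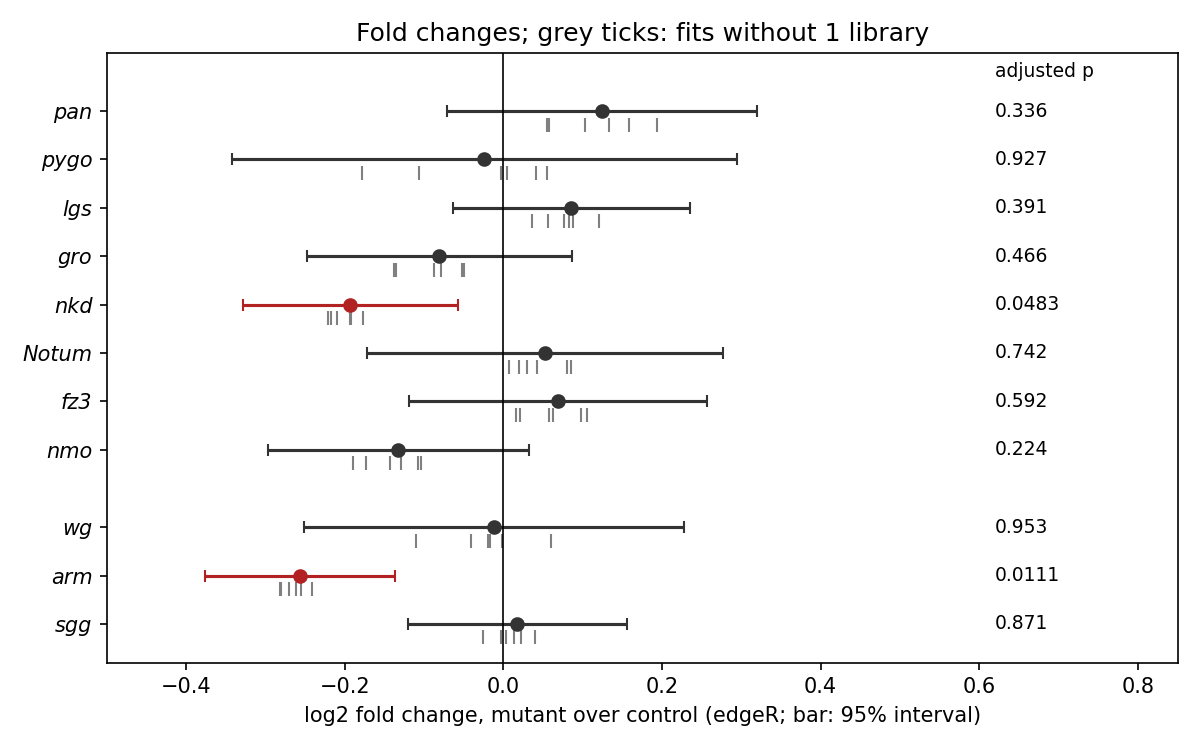
Log2 fold change, mutant over control (horizontal axis), of the 8 genes and of wg, arm and sgg, with 95% intervals from edgeR's quasi-likelihood fit and the adjusted p at the right. Red marks an adjusted p under 0.05 (nkd and arm), and grey ticks are the 6 fits that each leave out 1 library, which for pygo, wg and sgg fall on both sides of 0.

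The authors' deposited table gave the same picture of the 8 genes. There, in the authors' deposited table, only nkd (1 of the 8) had an adjusted p under 0.05, as did 22.6% of all its genes. Its log2 fold changes of control over mutant ran from -0.13 for pan to 0.19 for nkd. The log2 CPM of the 8 genes in the authors' deposited table differed from those computed here by at most 0.02.

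Ratios of genes within a library do not depend on how libraries are scaled to each other. For 28 pairs of the 8 genes the log2 ratio was compared between the lines, and in 7 pairs the mutant and control values did not overlap. Among all 55393075 pairs of tested genes, 42.1% showed such a lack of overlap, so the 7 of 28 are not above that share. Of the 7, 4 involved nkd, which was lower in the mutant line relative to pan, lgs, Notum and fz3. The ratio of nkd reads to Notum reads was 8.82, 8.08 and 9.25 in the control collections and 7.46, 7.38 and 7.16 in the mutant collections. The ratio of nkd reads to fz3 reads was 4.90, 4.46 and 4.34 in the control collections and 3.67, 4.11 and 3.62 in the mutant collections. Relative to nmo, nkd did not separate the lines, with 0.536, 0.493 and 0.560 against 0.497, 0.488 and 0.537. The remaining 3 pairs were lgs over gro and Notum over nmo, both higher in the mutant line, and gro over fz3, which was lower. An exact permutation test of 3 against 3 collections cannot give a p under 0.1, so none is given for these ratios.

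**Figure D3:**
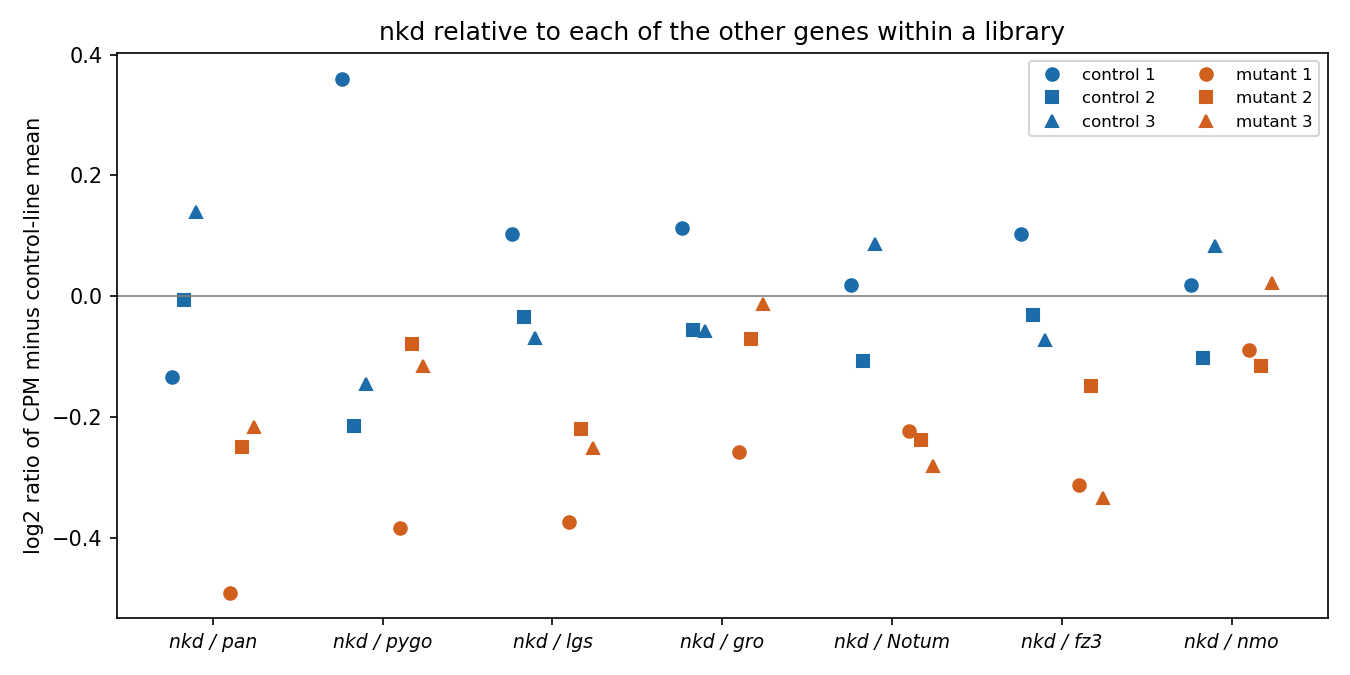
Log2 ratio of nkd to each of the other 7 genes within a library (vertical axis, with the control-line mean set to 0) for 3 control and 3 mutant collections. The mutant points all lie under the control points for the ratios to pan, lgs, Notum and fz3, and overlap them for pygo, gro and nmo.

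Levels of different genes were compared per length of RNA, as CPM per kb. Per kb of all annotated exons, gro stood highest at 38.3 ± 2.45 and nmo next at 35.1 ± 2.60, with overlapping ranges over the 6 libraries (SD, n = 6, both lines together). The genes lgs (25.4 ± 1.32) and nkd (25.0 ± 1.93) followed and also overlapped. Below them came pygo at 12.8 ± 1.76, whose lowest library just reached the range of pan at 8.86 ± 0.77. The range of pan in turn overlapped that of fz3 at 8.14 ± 0.47. Notum was lowest at 4.17 ± 0.22 CPM per kb, with no overlap with fz3. The order depends on the length used, since pan has 9 annotated transcripts and 14425 bases of exons but a median transcript of 4129 bases. Per kb of the median transcript, nmo was highest at 90.7 ± 6.72, gro next at 57.1 ± 3.65, and pan stood at 31.0 ± 2.69 CPM per kb, its range of 27.1 to 34.8 overlapping that of nkd. Notum was lowest by both lengths. Among the feedback genes, nmo and nkd stood above fz3 and Notum by both lengths, and nkd and fz3 were at 27.0 ± 2.09 and 13.2 ± 0.76 CPM per kb of the median transcript.

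**Figure D4:**
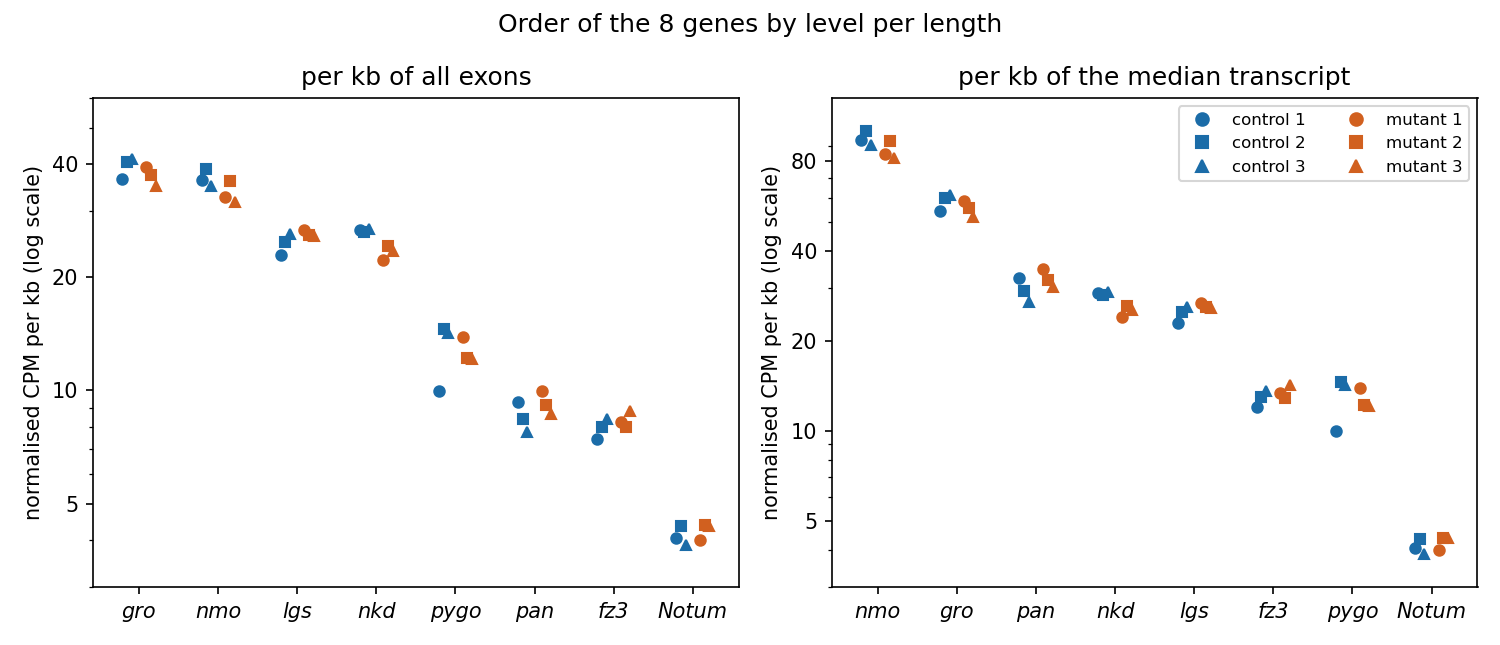
Normalised CPM per kb (log axes) of the 8 genes in each library, with length taken as all annotated exons (left) or the median annotated transcript (right). Notum is lowest in both, and pan moves from about 8.86 to about 31.0 CPM per kb with the length used.

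The pathway around the 8 genes was then described from lists of ligands and receptors, cytoplasmic components, further nuclear cofactors and other targets. The ligand gene wg, the source of the signal, had a log2 fold change of -0.01 (22.8 ± 0.77 and 22.7 ± 2.83 CPM, edgeR adjusted p 0.953), with an interval of -16.0% to 17.1%. Without mutant collection 3 its estimate was 0.06. The gene arm, which encodes Armadillo, the partner that Legless and Pangolin bind, fell from 953 ± 19.5 to 798 ± 11.3 CPM (edgeR adjusted p 0.0111). Of 60 tested genes in the 4 lists together, 14 fell and 2 rose, which is 26.7% called in either direction, against 22.3% of all tested genes. By direction, 8.67% of all tested genes fell and 13.7% rose. The falls among the 60 were thus above the share of all genes and the rises below it, with no set test run. The same 2 shares stand beside the counts of each list that follows. Their median log2 fold change was -0.16, against 0.01 for the 8 genes and -0.01 for all tested genes. Without 1 library the number that fell was 8 to 10, being 8 without mutant collection 1 or mutant collection 3 and 9 without control collection 2 or control collection 3.

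Of 15 tested ligand, receptor and surface genes, 4 fell and 1 rose, with a median of -0.14. Wnt4 (-0.40) and Wnt5 (-0.36), other Wnt ligands, fell, as did the glypican gene dlp (-0.36) and the receptor gene fz2 (-0.23), and Swim, which encodes a secreted Wingless-binding protein, rose by 0.68 on the log2 scale. The edgeR adjusted p of these 5 ran from 0.00279 to 0.0219. The calls of dlp and fz2 were lost without mutant collection 3 (edgeR adjusted p 0.0560 and 0.0782), and that of fz2 also without control collection 2 (0.0703). Of 10 cytoplasmic components 1 fell, arm, and the list had a median of -0.10.

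Of 13 further nuclear cofactors, 2 fell and 11 did not pass, with a median of -0.17. The 2 were skd (-0.33, edgeR adjusted p 0.0282), a Mediator subunit that works with Pygopus in the fly wing, and ebd1 (-0.32, edgeR adjusted p 0.0301), which binds Armadillo and Pangolin. No cofactor was called without control collection 3, mutant collection 1 or mutant collection 2, and 1 without mutant collection 3. The call of skd was lost without control collection 3 (0.0752), mutant collection 1 (0.0604) or mutant collection 2 (0.0776). The call of ebd1 was lost in 5 of the 6 fits without 1 library, at edgeR adjusted p 0.0615 and 0.0751 without control collections 1 and 3 and 0.0898, 0.0802 and 0.0521 without mutant collections 1, 2 and 3. Both cofactor falls are larger in estimate than that of any of the 4 nuclear effectors, a difference that was not tested.

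Of 22 tested other targets, 7 fell and 1 rose, and the median of -0.27 was the lowest of the 4 lists. The list shares slp1, 1 of the 7 that fell (-0.34), with the earlier-embryo list described below, and the call of slp1 was lost in 7 of 14 alternatives. Most of these targets are regulated by other signals as well, and the list holds genes that Wingless represses, such as Tig and Ugt36Bc. Tig did not pass (-0.06, edgeR adjusted p 0.599), while Ugt36Bc was the 1 that rose (0.21). Its call was lost in 10 of 14 alternatives (adjusted p 0.0669 to 0.171 there), with each other scaling but RLE, with no filter, in DESeq2, with the replicate block (0.0921) and without any 1 library other than control collection 1. Dtg (CG6234), a Wingless target in cultured fly cells whose symbol stands for Dpp target gene, fell by 1.08 on the log2 scale. It had 1793, 2232 and 1924 reads in the control collections and 945, 845 and 780 reads in the mutant collections, with no overlap (edgeR adjusted p 0.00143). The wing and muscle regulator vg fell by 0.69 (edgeR adjusted p 0.00793), from 17.2 ± 1.93 to 10.7 ± 1.18 CPM. Doc3 (-0.64), a T-box gene of the dorsal ectoderm and heart, mid (-0.38), a T-box gene of the heart and epidermis, and inv (-0.37), the paralogue of engrailed, also fell. Without 1 library, 3 to 5 of these targets fell in place of 7. The calls of Dtg and vg held in every alternative run. Those of inv, mid and Doc3 did not: without mutant collection 1 their edgeR adjusted p was 0.0806, 0.0674 and 0.104, and without control collection 2 it was 0.0708, 0.0751 and 0.0741. Without control collection 1 the edgeR adjusted p was 0.0648 for inv and 0.0923 for Doc3, and without mutant collection 2 it was 0.0826 and 0.109. Without control collection 3 it was 0.0776 for Doc3, and without mutant collection 3 it was 0.0799 for mid. With the replicate block the edgeR adjusted p was 0.0628 for inv and 0.0551 for Doc3.

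Repressors that recruit Groucho were listed separately, because the RNA of gro itself did not pass the test. Of 11 tested, 3 fell and 1 rose. The 3 were E(spl)m7-HLH (-0.54), a Notch-induced repressor, brk (-0.51), a repressor of Dpp targets, and run (-0.46), a pair-rule factor, and the pair-rule gene h rose by 0.47 on the log2 scale. Their edgeR adjusted p ran from 0.0101 to 0.0357. Both run and h are also in the earlier-embryo list described next. The call of brk was lost without control collection 2 (0.0531) and without mutant collections 1, 2 and 3 (0.0914, 0.0770 and 0.0782), and with the replicate block (0.0572).

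**Figure D5:**
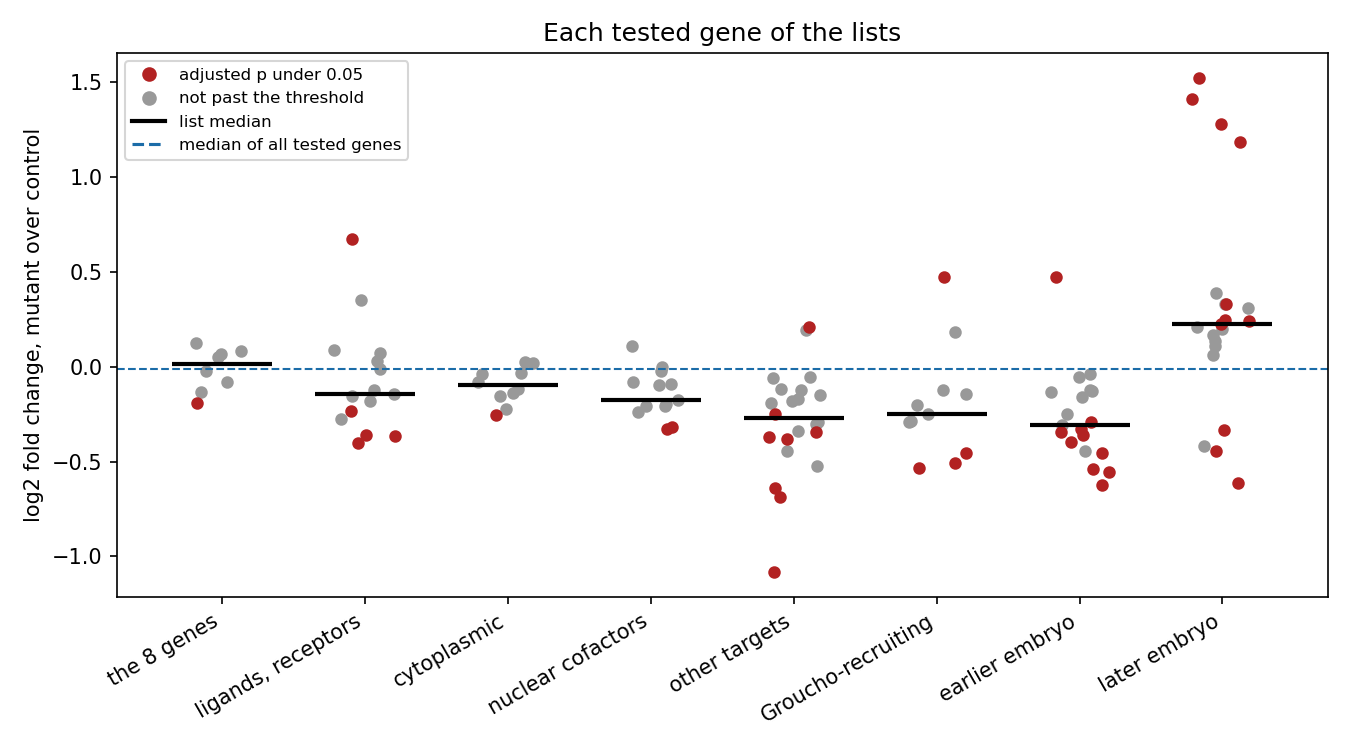
Log2 fold change, mutant over control (vertical axis), of each tested gene of the 8 and of 7 lists, with the list median as a bar, called genes in red and the median of all tested genes as a dashed line. The 8 genes lie within 0.20 of 0, with a median of 0.01, while the lists of other targets and of earlier-embryo genes have medians of -0.27 and -0.31.

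Genes listed here as typical of earlier or later embryos also moved between the lines. Whether their movement reflects embryo age was not tested. Of 19 tested genes that are typical of earlier embryos, 9 fell and 1 rose, with a median of -0.31, and their summed level was 639 to 651 CPM in the control libraries and 556 to 583 CPM in the mutant libraries. Of 21 tested genes of later embryos, cuticle, nervous system and muscle, 8 rose and 3 fell, with a median of 0.23, and the list shares nSyb, brp, Syt1 and Mhc with the tissue markers. Its summed levels were 16203 to 18047 CPM in control libraries against 22171 to 22859 CPM in mutant libraries. Abundant genes weigh most in that sum, such as Mhc (means 5496 CPM in controls and 6494 in mutants) and TwdlM (907 and 2609). The 3 that fell were mwh (-0.61), ple (-0.44) and kkv (-0.34). The call of mwh was lost without mutant collection 2 (edgeR adjusted p 0.0503) or 3 (0.0548). That of ple was lost with the replicate block (0.0827) and without any 1 library other than mutant collection 2. The number of earlier-embryo genes that fell was 4 without control collection 1, control collection 2, mutant collection 1 or mutant collection 2, and 5 without mutant collection 3. The number of later-embryo genes that rose was 4 without control collection 2, mutant collection 1 or mutant collection 3. The part of embryo age in the fall of nkd and of the listed targets was not tested. Among tissue markers, 4 of 6 muscle genes rose (summed level 18734 to 20526 CPM in control libraries and 23015 to 23452 CPM in mutant libraries), and 2 of 5 epidermal genes fell (660 to 716 and 532 to 556 CPM). Of 6 neuronal genes, 2 rose and 1, elav, fell (1010 to 1038 and 1068 to 1116 CPM). Of 4 glial genes, 1, gcm, fell (144 to 152 and 139 to 145 CPM). None of 5 hemocyte genes passed (1647 to 1983 and 1662 to 1861 CPM), with 2 at an unadjusted p under 0.05 and 1 called by the DESeq2 Wald test. These counts changed when 1 library was left out. Without mutant collection 1 or mutant collection 3, 2 muscle genes and 0 neuronal genes rose, and without control collection 1, control collection 2 or mutant collection 2, 1 neuronal gene rose. With the replicate block or library size alone 1 neuronal gene rose. The call of elav was lost without control collection 2, mutant collection 2 or mutant collection 3 (edgeR adjusted p 0.0534, 0.0699 and 0.0932). The epidermal gene sha was lost without mutant collection 3 (0.0640). The call of gcm was lost with the replicate block (0.0546) and without any 1 library other than control collection 3 (0.0566 to 0.0901). Without control collection 1, 1 hemocyte gene rose and 1 fell. The part of tissue composition in the results for the 8 genes was not tested.

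The genes nearest to the 8 on their chromosomes were looked at as a setting for these values. Of 48 distinct neighbours, the 6 nearest tested genes of each, all within 25498 bases, 8 were called (16.7%, against 22.3% of all tested genes), 3 higher and 5 lower. None of the 6 neighbours of pan or of the 6 neighbours of lgs, both on chromosome 4, passed the edgeR test, and 21.8% of the 87 tested genes of that chromosome did. The genes tw, nyo and CG5895, chosen after their values were seen, moved far more than the gene beside them. The gene tw, 524 bases from fz3, fell by 0.98 on the log2 scale (84.1 and 42.6 CPM, edgeR adjusted p 0.00563), and nyo, 9670 bases from pygo, fell by 1.05 (188 and 90.6 CPM, edgeR adjusted p 0.00511). CG5895, 2733 bases from Notum, rose by 1.14 at a low level (1.79 and 4.06 CPM, edgeR adjusted p 0.0245). Beside nmo, CG8038 and CG8209 fell by 0.55 and 0.45 (edgeR adjusted p 0.0143 and 0.00821). Beside gro, E(spl)m7-HLH fell and Dak1 rose by 0.24 (edgeR adjusted p 0.0272). Next to nkd, SmydA-2 at 489 bases differed by 0.08 (edgeR adjusted p 0.632). Of the 6 neighbours of nkd 1 was called, CG11619 at 15418 bases, which rose by 0.60 (edgeR adjusted p 0.0200).

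The genes most like nkd over the 6 libraries were prtp and Cf2, with root mean square differences from it of 0.0096 and 0.02 in centred log2 CPM. The gene prtp was at 241, 236 and 241 CPM in the control collections and at 197, 216 and 209 CPM in the mutant collections. Cf2 was at 57.2, 56.5 and 55.7 CPM and at 48.1, 51.5 and 50.0 CPM. Both were picked for likeness to nkd over these same 6 libraries. A shared pattern, such as mutant collection 1 being lowest, therefore follows from that choice. The gene prtp passed the test (edgeR adjusted p 0.0375) and Cf2 did not (0.0788).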

How the data were processed

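RNA of 3 control and 3 mutant embryo collections was sequenced from one end after poly(A) selection with a directional kit, per the labels' protocols. Deposited were raw counts, whole numbers per gene, for 17493 identifiers, and a table of 10526 genes that repeats these counts (equal for 10526 of 10526). Per the file headers, that table also gives log2 CPM per library and the authors' log2 fold change (control divided by mutant), its p-value, adjusted p-value and test scores (not used here). The submitters' processing notes name TopHat2 2.1.1, Bowtie2 2.3.4.0, edgeR 3.14.0 and limma 3.28.21. The genome build, the counting tool and the use of strand are not given in the sources used here. All columns were matched to samples.

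Genes were kept by filterByExpr (minimum count 10, minimum total 15), scaled by TMM and tested two-sided over all 10526 genes in R 4.3.3 by glmQLFTest of edgeR 4.0.16, after glmQLFit. The standard error is the log2 fold change divided by the square root of F, and the 95% interval uses the fit's degrees of freedom. DESeq2 1.42.0 and limma 3.58.1 served as alternatives. The code was tested on simulated counts. CPM per kb used exon lengths of Ensembl release 115. Intervals rest on the spread between 3 collections a line, moderated by the fit with that of other genes (8.56 degrees of freedom for nkd). Reads without molecular identifiers are not independent molecules. Replicate numbers were not in the model. The genes and lists were chosen with earlier results of these data known. Named from the lists are up to 5 called genes each by size of change, beside wg, arm and sgg. Ugt36Bc, ple and kkv were named besides for their direction, and slp1 because it is in more than 1 list. The 2 genes most like a called one are those with the smallest root mean square difference.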

Additional observations from a re-analysis of the deposited data

How the results depend on the processing

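The alternatives were 3 other scalings, 2 other filters, 2 other tools (limma-voom and DESeq2), other thresholds, removal of each library and a replicate block. Of the 8 genes, 0 fell in place of 1 with no filter, with the DESeq2 Wald test, with the block, at a threshold of 0.01 and in each fit without 1 library (0 to 0). The log2 fold change of nkd was then -0.20 with no filter, -0.19 with DESeq2 and -0.19 with the block, and -0.22 to -0.18 without 1 library. The median of the 8 genes ran from -0.0576 to 0.0562 without 1 library, and the estimate of pygo from -0.179 to 0.0549. Of the 60 surrounding Wingless genes, 1 rose in place of 2 with library size alone, under upper-quartile scaling, without a filter, in DESeq2 and with the block, and 1 to 2 rose and 8 to 10 fell without 1 library. Of the earlier-embryo genes 5 fell with the block and 4 to 6 without 1 library, and of the later-embryo genes 4 to 8 rose and 1 to 3 fell. Of all genes, 457 to 738 fell in place of 913 without 1 library, and 838 to 1415 rose in place of 1437. The estimate of sgg was -0.0039 under upper-quartile scaling, -0.024 with library size alone and -0.026 to 0.0402 without 1 library, and that of wg was -0.11 to 0.0594. For these changes the cause was not tested. Control and mutant libraries with equal numbers showed no joint deviation (correlations -0.0184, -0.0188 and 0.0102), so the block pairs them by number only. With it 1994 genes were called in place of 2350. With 3 collections a line, the 95% interval of each of the 7 genes that did not pass holds 0. Its limits differ by gene, being -21.1% to 22.6% for pygo and -18.6% to 2.21% for nmo. Changes inside a gene's own interval are not excluded for that gene, and the smallest detectable change was not computed.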
